A study of Mus musculus with 9 samples.

Results

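The genes of 4 proteins of the primary granule of neutrophils, Mpo, Elane, Prtn3 and Ctsg, were followed in CD11b+ spleen cells of tumor-free and tumor-bearing mice. They were the probe sets that the platform annotation assigns to exactly one of these symbols, which gave 5 probe sets of the 12488 on the Affymetrix MG-U74Av2 array: 100414_s_at and 100415_at for Mpo, 100755_at for Elane, 104541_at for Prtn3 and 92924_at for Ctsg. All 5 passed the filter on low signals that left 8695 probe sets for testing, but Ctsg did so only through the fresh arrays. Its mean log2 signal was 4.66 over the 9 arrays, against a lowest kept mean of 4.53, and 3.87 over the tumor-free and cultured arrays, whereas the other 4 probe sets would also have passed on those arrays. A gene kept in this way had to differ, so the values of Ctsg are given as a description with no test, and counts and medians are over the other 4 probe sets and 3 genes.

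The donors were female mice, 8 to 12 weeks of age, whose spleen cells were sorted for CD11b, the integrin alpha M chain carried by neutrophils, monocytes, macrophages and some other leukocytes. Each group had 3 arrays, 1 for each of 3 RNA samples: cells of tumor-free mice, taken without culture, cells of tumor-bearing mice without culture (fresh), and cells of tumor-bearing mice kept for 24 h in complete medium (cultured). Cultured cells of tumor-free mice were not analysed here, so what culture does to cells of such mice cannot be seen here. The tumor, the mouse strain and the number of mice behind each sample are not named here. The labels used here do not say whether samples came from separate mice, so p-values cover only the spread among the samples as labelled, and that spread may be technical. Itgam, the gene of the sorted marker, had a signal of 244 to 954 over the 9 arrays. The summed signal of 9 genes common to myeloid cells lay between 8268 and 13824 on every array.

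Neutrophils make their granules in sequence. The primary, or azurophil, granules are filled first, at the promyelocyte stage, and transcription of their contents is shut down as the cells mature, so mature neutrophils keep the proteins while holding little of the mRNA. Myeloperoxidase, encoded by Mpo, turns hydrogen peroxide and chloride into hypochlorous acid. Elane, Prtn3 and Ctsg encode neutrophil elastase, proteinase 3 and cathepsin G, serine proteases that degrade microbial and matrix proteins. They are activated by cathepsin C and held on the proteoglycan serglycin. The spleen of adult mice can support granulocyte formation outside the marrow.

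The 250 bases before the annotated start of each gene are shown because the signals of these genes were high and low on many of the same arrays. They were taken from RefSeq on GRCm38.p6, which held all 4 genes, and are written 5′ to 3′ on the gene's strand. Capitals mark AGGAAGT, a sequence of the type bound by ETS factors such as PU.1.
Mpo, chr11:87793534-87793783, plus strand: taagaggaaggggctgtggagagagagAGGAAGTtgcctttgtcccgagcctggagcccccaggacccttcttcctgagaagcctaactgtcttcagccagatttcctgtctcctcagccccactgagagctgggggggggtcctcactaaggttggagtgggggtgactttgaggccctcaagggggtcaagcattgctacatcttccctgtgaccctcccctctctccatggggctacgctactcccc
Elane, chr10:79886062-79886311, plus strand: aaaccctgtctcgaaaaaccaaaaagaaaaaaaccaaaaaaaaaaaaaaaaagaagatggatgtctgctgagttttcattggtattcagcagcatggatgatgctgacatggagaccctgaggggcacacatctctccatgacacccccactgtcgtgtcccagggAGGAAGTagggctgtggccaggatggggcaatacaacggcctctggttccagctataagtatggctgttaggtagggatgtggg
Prtn3, chr10:79879417-79879666, plus strand: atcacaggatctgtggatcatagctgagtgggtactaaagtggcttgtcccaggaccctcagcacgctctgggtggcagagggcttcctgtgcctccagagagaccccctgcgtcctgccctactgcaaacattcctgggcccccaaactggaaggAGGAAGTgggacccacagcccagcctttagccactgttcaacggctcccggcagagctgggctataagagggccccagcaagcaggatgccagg
Ctsg, chr14:56102575-56102824, minus strand: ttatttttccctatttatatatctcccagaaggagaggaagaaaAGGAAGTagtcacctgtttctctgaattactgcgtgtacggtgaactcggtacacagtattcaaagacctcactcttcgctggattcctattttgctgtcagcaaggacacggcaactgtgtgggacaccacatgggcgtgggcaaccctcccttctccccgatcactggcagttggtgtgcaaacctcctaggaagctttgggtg
Prtn3 and Elane are neighbours on chromosome 10, Mpo lies beside Lpo and near Epx on chromosome 11, and Ctsg lies on chromosome 14 between Mcpt8 and Gzme in a cluster of chymase and granzyme genes.

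AGGAAGT was found once in each of the 4 windows, with its first base 223 bases before the start of Mpo, 84 before Elane, 94 before Prtn3 and 206 before Ctsg. It was found on either strand in 7.69% of 32851 RefSeq windows of the same length. The motif was chosen after these sequences had been read, so its presence in all 4 is a description only. The MYB-type letters AACNG were found in 4 of 4 windows and in 74.2% of all, and the RUNX-type letters TGNGGT in the Ctsg window and in 40.1% of all. TATAAG, of the TATA box type, was found in the Elane and Prtn3 windows, 31 and 32 bases before the start, and in 6.65% of all windows. The C/EBP-type letters TTNNGNAA were in none of the 4 windows and in 36.8% of all. Both strands were searched, and no match of one motif overlapped a match of another. A match shows letters and not binding.

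In each group 1 array stood apart from the other two, and these arrays bear on every value of the granule genes. The close pairs were tumor-free 2 and 3 (r = 0.957 over the tested probe sets), fresh 1 and 2 (0.949) and cultured 1 and 2 (0.929). Tumor-free 1 reached a correlation as low as 0.823 within its group, fresh 3 one of 0.874, and cultured 3 one of 0.850. The deposited signals had been scaled, with a trimmed mean of 100.06 to 100.08 and a median signal of 33.4 to 42.8 on each array. The mean log2 signal of bacterial spike-in controls ran from 8.99 on fresh 3 to 10.50 on cultured 1, and high-signal and low-signal arrays by that measure occurred in every group. The 3'/5' signal ratio of beta-actin, a measure of RNA integrity, was 2.57, 0.994 and 1.19 on the tumor-free arrays, 1.59, 1.58 and 1.35 on the fresh arrays and 2.27, 2.36 and 1.16 on the cultured arrays. The 3 arrays with the highest ratio, tumor-free 1 and cultured 1 and 2, also hold the lowest signal of each of the 4 granule genes.

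Mpo was the gene with the widest range. Its probe set 100414_s_at had signals of 2.08, 55.0 and 95.2 on tumor-free arrays 1, 2 and 3, of 223, 183 and 789.8 on the fresh arrays, and of 27.1, 5.76 and 27.5 on the cultured arrays. All 3 fresh arrays were above all tumor-free arrays, and all cultured arrays were below all fresh arrays, while the cultured and tumor-free arrays overlapped. The group means were 50.8 ± 46.7, 399 ± 339 and 20.1 ± 12.4 (SD, n = 3 each). The tumor-free mean rests on an array at 2.08, under the offset of 7.83 added to every signal before log2 was taken.

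The second Mpo probe set, 100415_at, had overlapping groups. Its signals were 28.6, 37.1 and 31.3 on the tumor-free arrays, 48.5, 39.0 and 34.7 on the fresh arrays and 40.8, 31.4 and 26.0 on the cultured arrays. The highest signal was 1.87 times the lowest, and the values lay near the array medians given above. Over the 9 arrays it correlated with 100414_s_at at r = 0.500 (Spearman's rho 0.450) on the log2 scale. The suffix of 100414_s_at marks probes that can match more than one transcript, and which of the probe sets follows Mpo mRNA better cannot be told from these values. Statements on Mpo below rest on 100414_s_at, which has the higher mean signal, and hold for that probe set only.

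Elane had signals of 57.2, 210.2 and 257 on the tumor-free arrays, 292, 291 and 709 on the fresh arrays and 107, 62.8 and 86.8 on the cultured arrays. The fresh arrays were again the 3 highest, but fresh 1 and 2 lay only just above tumor-free 3. The group means were 175 ± 105, 431 ± 241 and 85.5 ± 22.1 (SD, n = 3 each). The mean of fresh 1 and 2 was 1.25 times that of tumor-free 2 and 3, the other closely similar pair.

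Prtn3, the neighbour of Elane, had signals of 45.8, 110.0 and 123 on the tumor-free arrays, 211, 226 and 641 on the fresh arrays and 76.4, 18.0 and 66.3 on the cultured arrays. The fresh arrays were the 3 highest without overlap, and cultured 2 was the lowest. The group means were 92.8 ± 41.2, 359 ± 244 and 53.6 ± 31.2 (SD, n = 3 each).

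Ctsg was the dimmest of the 4 probe sets. It had signals of 2.71, 3.35 and 8.51 on the tumor-free arrays, 38.9, 52.2 and 139.9 on the fresh arrays and 2.22, 4.98 and 32.4 on the cultured arrays. The fresh arrays did not overlap either other group. The tumor-free values and cultured 1 and 2 lay near or below the offset of 7.83, where a signal has little meaning as a level, so the size of a fold against them is uncertain. The group means were 4.86 ± 3.18, 77.0 ± 54.9 and 13.2 ± 16.7 (SD, n = 3 each).

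**Figure D1:**
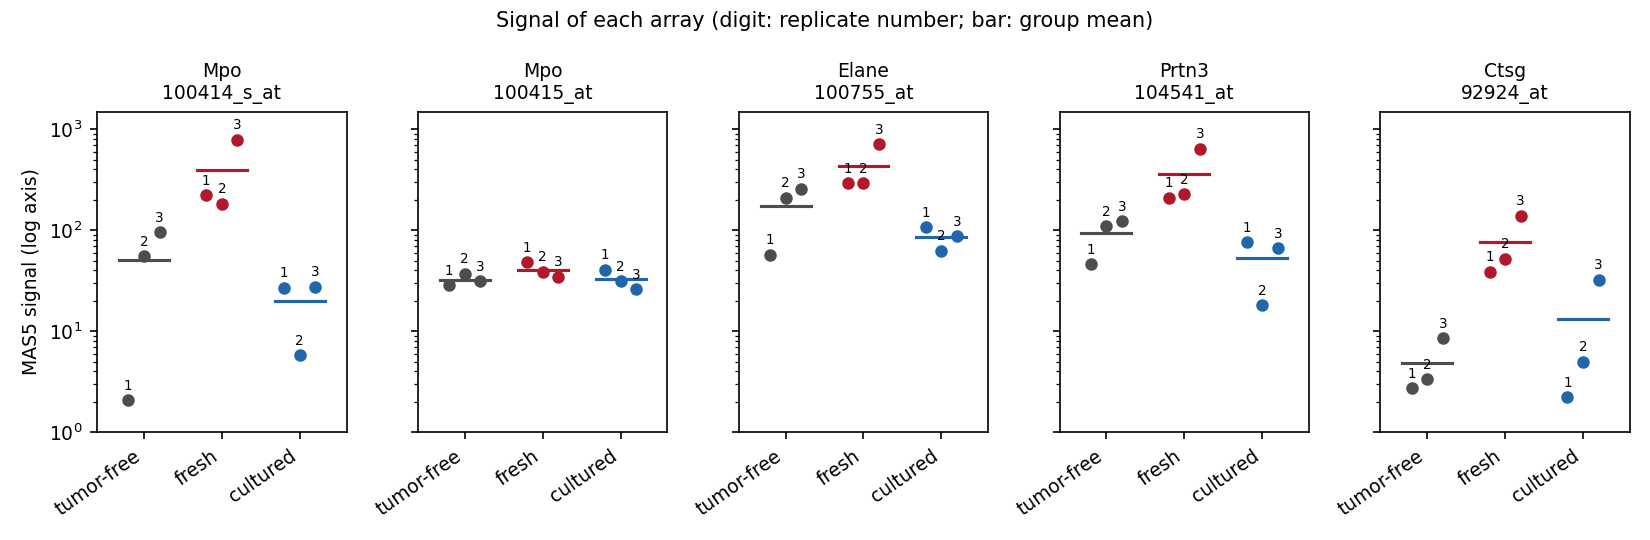
MAS5 signal of the 5 probe sets on each array, on a log axis, by group; points are arrays with their replicate number and bars are group means of 3 arrays. In Mpo 100414_s_at, Elane, Prtn3 and Ctsg the 3 fresh arrays sit above all others with fresh 3 on top, whereas Mpo 100415_at stays between 26.0 and 48.5 throughout.

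Fresh 3 had the highest signal of all 9 arrays in each of the 4 genes. It was 3.54 times the second highest array for Mpo, 2.43 times for Elane, 2.84 times for Prtn3 and 2.68 times for Ctsg, whereas fresh 1 and 2 lay close together. At the low end the order differed between genes: tumor-free 1 was lowest for Mpo and Elane, cultured 2 for Prtn3 and cultured 1 for Ctsg. The summed signal of the 4 genes was 108, 379 and 484 on the tumor-free arrays, 765, 752 and 2280 on the fresh arrays and 213, 91.6 and 213 on the cultured arrays.

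The 4 genes varied together over the arrays, most closely Mpo, Elane and Prtn3. On the log2 scale over 9 arrays, Mpo and Elane had r = 0.980 (rho 0.983), Mpo and Prtn3 0.963 (0.950) and Elane and Prtn3 0.954 (0.967). With the group means removed these were 0.983, 0.897 and 0.864, so the arrays of 1 group differed in all 3 genes at once. Ctsg had r = 0.825 with Mpo, 0.731 with Elane and 0.799 with Prtn3, which were 0.529, 0.447 and 0.567 with the group means removed and 0.686, 0.514 and 0.620 without fresh 3. The arrays share groups and scaling, so these values are a description.

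The first comparison set fresh cells of tumor-bearing mice against cells of tumor-free mice, to ask whether tumor-bearing mice held more mRNA of the primary granule in splenic CD11b+ cells. The mean signal on the fresh arrays was 7.85 times the tumor-free mean for Mpo, 2.46 times for Elane and 3.87 times for Prtn3, and in these 3 genes every fresh array was above every tumor-free array. Over all tested probe sets, 9.34% had fresh arrays wholly above the tumor-free arrays. On the log2(signal + 7.83) scale the difference was 3.03 ± 0.82 (SE, 95% interval 1.22 to 4.84) for Mpo, 1.36 ± 0.52 (0.22 to 2.51) for Elane and 1.78 ± 0.55 (0.55 to 3.00) for Prtn3. For Ctsg, whose tumor-free signals were near or below the offset, it was 2.58, a size set in part by that offset. In such bulk samples a larger share of granule-forming cells and more mRNA per cell cannot be told apart.

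At a Benjamini-Hochberg adjusted p below 0.05 in limma, 0 of the 4 probe sets passed, where 1.90% of all tested probe sets did (0.943% as higher). The adjusted p was 0.0953 for Mpo, 0.218 for Elane, 0.133 for Prtn3 and 0.648 for Mpo 100415_at, whose difference was 0.27 ± 0.28. At an unadjusted p below 0.05 there were 3 of 4, all higher, against 7.00% of all tested probe sets that were higher. The median difference of the 3 genes was 1.78, beside 0.01 over all tested probe sets.

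The size of the difference depended on single arrays, its direction did not. Without tumor-free 1 it was 2.03 for Mpo, 0.74 for Elane, 1.37 for Prtn3 and 2.46 for Ctsg, and without fresh 3 it was 2.39, 0.94, 1.27 and 2.09. Only the closely similar pairs were then set side by side. The mean signal of fresh 1 and 2 was 2.70 times that of tumor-free 2 and 3 for Mpo, 1.25 times for Elane and 1.88 times for Prtn3. For Ctsg, whose tumor-free signals lay near or below the offset, it was 7.68 times. Splitting the arrays at the median of the spike-in signal gave, in the high and the low class, differences of 4.40 and 3.31 for Mpo, 2.20 and 1.58 for Elane, 2.08 and 2.39 for Prtn3, and 2.33 and 3.45 for Ctsg, with 1 or 2 arrays a group and no test. With that class as a block the 3 genes passed, with an adjusted p of 0.00577 for Mpo, 0.0396 for Elane and 0.0221 for Prtn3. Among 19 alternatives to the main fit this block gave the lowest adjusted p for each of them. Mpo passed in 2 of the 19, and Elane and Prtn3 in 1 each. More of all tested probe sets passed with this block too.

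The second comparison set cultured against fresh cells of tumor-bearing mice, to ask how these signals differed after 24 h in medium. Here too a change in the share of cells and in mRNA per cell cannot be told apart. Mpo and Prtn3 fell: the fresh mean was 19.8 times the cultured mean for Mpo and 6.70 times for Prtn3. The difference was -3.68 ± 0.82 (SE, 95% interval -5.49 to -1.87, limma adjusted p = 0.0409) for Mpo and -2.56 ± 0.55 (-3.78 to -1.34, adjusted p = 0.0355) for Prtn3. Elane, at -2.13 ± 0.52 (-3.28 to -0.98, adjusted p = 0.0572), was lower on all 3 cultured arrays but missed the threshold, and Ctsg was at -2.11. Mpo 100415_at was at -0.27 ± 0.28 (adjusted p = 0.719).

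Thus 2 of the 4 probe sets passed the test, against 2.69% of all tested probe sets and 1.17% as lower. In all 3 genes every cultured array was below every fresh array, which held for 8.81% of all tested probe sets, and 3 of 4 probe sets had an unadjusted p below 0.05, against 6.19% of all as lower. The median of the 3 genes was -2.56, beside 0.02 over all tested probe sets. The beta-actin ratio was higher on cultured 1 and 2 (2.27 and 2.36) than on the fresh arrays (1.35 to 1.59). It was 1.16 on cultured 3, the array that stood apart in its group, with Mpo, Elane and Prtn3 at 27.5, 86.8 and 66.3. The part of this ratio in the result was not tested.

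Both calls were lost without some single arrays. For Mpo the adjusted p was 0.0522 without tumor-free 2, 0.0984 without fresh 1, 0.0858 without fresh 2, 0.119 without fresh 3, 0.0861 without cultured 1 and 0.165 without cultured 2. For Prtn3 it was 0.0730, 0.0849 and 0.0981 without fresh 1, 2 or 3, 0.0532 without cultured 1 and 0.134 without cultured 2. With 1 array left out the difference lay between -4.07 and -3.04 for Mpo and between -2.88 and -2.02 for Prtn3. In the other direction, Elane passed without tumor-free 1 (adjusted p = 0.00682). In the high and low spike-in classes the differences were -3.27 and -4.50 for Mpo, -1.73 and -2.92 for Elane, -2.28 and -3.13 for Prtn3 and -2.22 and -1.88 for Ctsg, with no test.

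The third comparison set cultured cells of tumor-bearing mice against uncultured cells of tumor-free mice. The groups overlapped in every member, and in 18.5% of all tested probe sets they did not. For Mpo, Elane and Prtn3 the overlap came from tumor-free 1: every cultured array was below tumor-free 2 and 3. Of the 4 probe sets 0 had a limma adjusted p below 0.05, where 1.23% of all tested probe sets did, and 0 had an unadjusted p below 0.05, where 14.1% of all did. The differences were -0.65 ± 0.82 for Mpo (95% interval -2.46 to 1.16, adjusted p = 0.781), -0.76 ± 0.52 for Elane (-1.91 to 0.38, adjusted p = 0.556) and -0.78 ± 0.55 for Prtn3 (-2.01 to 0.44, adjusted p = 0.570), and Ctsg was at 0.48. Without tumor-free 1 they were -1.65 for Mpo (adjusted p = 0.164), -1.39 for Elane (0.0674) and -1.19 for Prtn3 (0.276), and with 1 array left out in turn they ran from -1.65 to 0.04, from -1.39 to -0.38 and from -1.19 to -0.25. The intervals are wide and do not show that the levels were alike. The median of the 3 genes was -0.76, beside 0.05 over all tested probe sets. The 3 comparisons share arrays, so their values are not independent of each other.

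**Figure D2:**
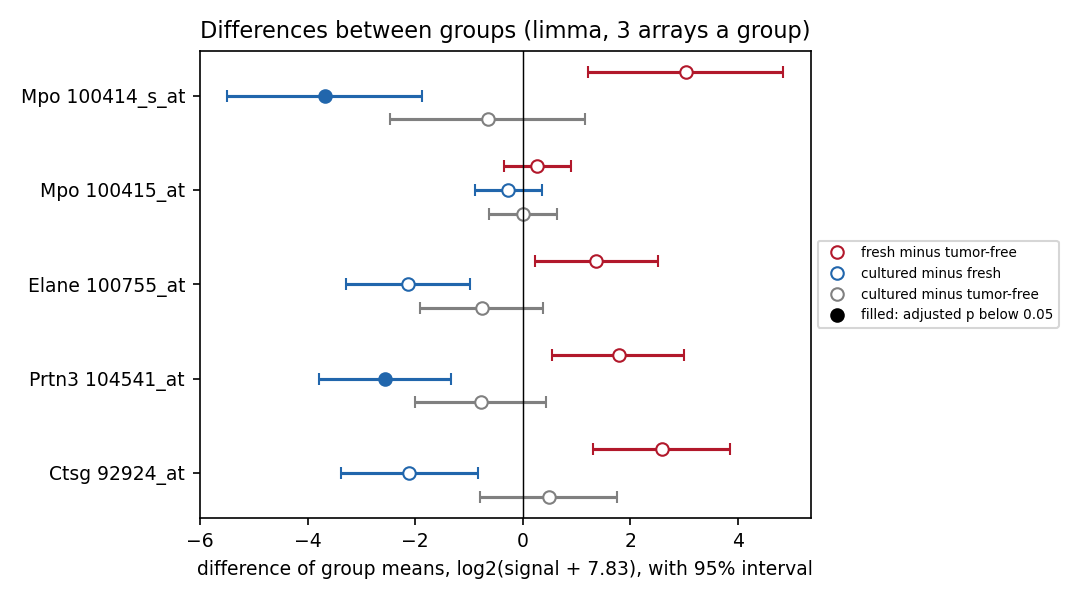
Difference between group means on the log2(signal + 7.83) scale for the 5 probe sets in the 3 comparisons, with 95% intervals from limma (3 arrays a group); filled points have an adjusted p below 0.05. The intervals of Mpo 100414_s_at, Elane and Prtn3 lie above 0 for fresh minus tumor-free and below 0 for cultured minus fresh. Filled points are those of Mpo and Prtn3 in the latter only. Ctsg passed the filter on low signals only through its fresh values, so its intervals are drawn as a description and are no test.

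Genes of other proteins stored in the primary granule had medians near 0 or of the opposite sign. Of 18 such genes 10 were on the array and 9 were tested, many of them lysosomal enzymes that macrophages also express. None passed in any of the 3 comparisons, and at an unadjusted p below 0.05 there was 1 lower in fresh against tumor-free cells, 1 higher and 2 lower in cultured against fresh cells, and 1 lower in cultured against tumor-free cells. The median difference was -0.06 for fresh against tumor-free and 0.44 for cultured against fresh. Lyz2, encoding lysozyme, had a difference of 0.02 for fresh against tumor-free, and Ctsb, a lysosomal cysteine protease, of -0.75 (adjusted p = 0.149). Srgn, encoding the proteoglycan serglycin that holds the granule proteases, was at 0.60 and then at -1.66 in cultured against fresh cells (adjusted p = 0.158), with 2674 on tumor-free 1 against 548 and 454 on the other tumor-free arrays.

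Genes that process or inhibit the granule proteases went different ways. Of 9 tested genes 1 rose and 1 fell in fresh against tumor-free cells, with a list median of 0.60, and none passed in cultured against fresh cells (1 higher and 2 lower unadjusted, median -0.41). Ctsc, encoding the cathepsin C that activates all 3 proteases, was at 0.29 and 0.11, neither past the test. Serpinb6a, encoding an intracellular inhibitor of cathepsin G, fell from 199, 362 and 358 on the tumor-free arrays to 102, 80.0 and 85.9 on the fresh arrays (log2 difference -1.65, adjusted p = 0.0241), and differed by -1.96 in cultured against tumor-free cells (adjusted p = 0.0133). Serpina1b, of the alpha-1 antitrypsin family that inhibits elastase, rose by 1.49 in fresh cells (adjusted p = 0.0489), but its signal was at most 55.3, and the family holds near-identical copies that a probe set may not separate. Slpi, a secreted inhibitor of elastase and cathepsin G, had signals of 710.3, 927 and 806 in tumor-free cells, 1706, 1652 and 1108 in fresh cells and 4852, 5040 and 2072 in cultured cells. It rose by 2.18 in cultured against tumor-free cells (adjusted p = 0.0170), and its signals were highest in the cultured group, where those of Elane had their lowest mean.

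These calls rested on single arrays too. Serpinb6a lost its call in fresh cells without tumor-free 2 or 3 or fresh 1 or 2 (adjusted p up to 0.125), and in cultured cells without tumor-free 2 or 3 or cultured 1 or 2 (up to 0.0801). Slpi lost its call without the same 4 arrays (up to 0.0823), and Serpina1b without any single array except cultured 3 (up to 0.212).

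Regulators of early granulocyte precursors were next. Of 15 tested genes none rose in fresh against tumor-free cells and 2 fell, with a median of -0.18, and none passed in cultured against fresh cells (1 lower unadjusted, median -0.41). Factors known to drive the granule genes in promyelocytes were Myb at 0.39, Cebpa at 0.38 and Spi1, encoding PU.1, at -0.13 in fresh cells. Gfi1, another gene of this list, was at -0.19, and none of these passed the test. Myb had signals of 16.3, 63.7 and 73.1 on the tumor-free arrays, 47.2, 44.4 and 102 on the fresh arrays and 29.0, 25.1 and 70.4 on the cultured arrays, so all groups overlapped. Cebpd, encoding a C/EBP factor of later stages and of inflammation, fell by 1.87 on the log2 scale (adjusted p = 0.00897). Csf3r, encoding the receptor of granulocyte colony-stimulating factor, fell by 1.31 (adjusted p = 0.0413). In cultured against tumor-free cells Csf3r and Kit, encoding the receptor of stem cell factor, fell, with differences of -1.79 and -1.61 (adjusted p = 0.0133 and 0.0406). Myc, a factor of growth, was at -1.59 in cultured against fresh cells (adjusted p = 0.0634). Cebpd lost its call without fresh 1 or 2 (adjusted p up to 0.0667). Csf3r lost the call in fresh cells without tumor-free 2 or 3, any fresh array or cultured 1 (up to 0.201), and in cultured cells without tumor-free 2 or 3 or cultured 1 or 2 (up to 0.0796). Kit lost it without any single array except tumor-free 1 (up to 0.194).

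Genes of the secondary and tertiary granules, which are filled after the primary granules, had a median difference of 0.99 in fresh against tumor-free cells and of -0.84 in cultured against fresh cells. None of 17 tested genes passed in the first (3 higher unadjusted). In the second 1 rose, and 2 were higher and 2 lower unadjusted. Ltf, encoding lactoferrin of the secondary granule, had signals of 102, 2774 and 3239 on the tumor-free arrays, 4394, 4223 and 4216 on the fresh arrays and 577, 221 and 3699 on the cultured arrays, so it was low on tumor-free 1 and on cultured 1 and 2, where Mpo was also low, but high on cultured 3, where Mpo was not. Mmp8, encoding neutrophil collagenase, and Chil3, a chitinase-like protein of immature neutrophils and macrophages, were at 2.53 and 2.31 in fresh cells (adjusted p = 0.0965 and 0.0999). The gene that rose was Arg1, an arginase of murine macrophages and myeloid suppressor cells, from 6.20, 33.5 and 11.8 on the fresh arrays to 2751, 2403 and 2160 on the cultured arrays (log2 difference 6.76, adjusted p = 0.000857), a call kept without any single array. In cultured against tumor-free cells Arg1 and Cybb, encoding a subunit of the NADPH oxidase that feeds Mpo with peroxide, rose by 5.60 and 2.41 (adjusted p = 0.00519 and 0.0226), the latter not without tumor-free 3 or cultured 1 or 2 (adjusted p up to 0.0860). With tumor-free 1 left out 3 genes of these granules passed as higher in fresh against tumor-free cells, and with cultured 3 left out 4 passed as lower in cultured against fresh cells.

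Of 8 surface receptors of mature neutrophils 2 fell in fresh against tumor-free cells, Cxcr2, the chemokine receptor by which mature neutrophils leave the marrow, and Csf3r. Cxcr2 went from 163, 247 and 275 to 62.6, 51.0 and 75.2 (log2 difference -1.72, adjusted p = 0.0385), without overlap and opposite in direction to the granule genes. Its call was lost without tumor-free 2 or 3, any fresh array or cultured 1 (adjusted p up to 0.170). In cultured against tumor-free cells the same 2 genes fell, Cxcr2 with a difference of -2.28 (adjusted p = 0.0144, up to 0.0801 without tumor-free 2 or 3 or cultured 1 or 2). The list median was 0.15, and Il1r2, a decoy receptor of interleukin 1, was at 2.48 (adjusted p = 0.286) with 5866 on tumor-free 1 against 148 and 142 on the other tumor-free arrays.

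Cell cycle genes, active in dividing precursors, had a median difference of 0.22 in fresh against tumor-free cells, where none of 23 passed (1 higher unadjusted), and of -0.84 in cultured against fresh cells, where 2 fell and 8 were lower unadjusted. Mcm4, a subunit of the replicative helicase, and Stmn1, a microtubule regulator of dividing cells, fell, with differences of -1.49 and -2.83 (adjusted p = 0.0261 and 0.0434). Mcm4 lost its call without any fresh array or cultured 2 (adjusted p up to 0.115), and Stmn1 without any array but tumor-free 1 and cultured 3 (up to 0.170). With cultured 3 left out 9 cell cycle genes passed as lower, and 0 passed without any one of the fresh arrays or cultured 2.

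**Figure D3:**
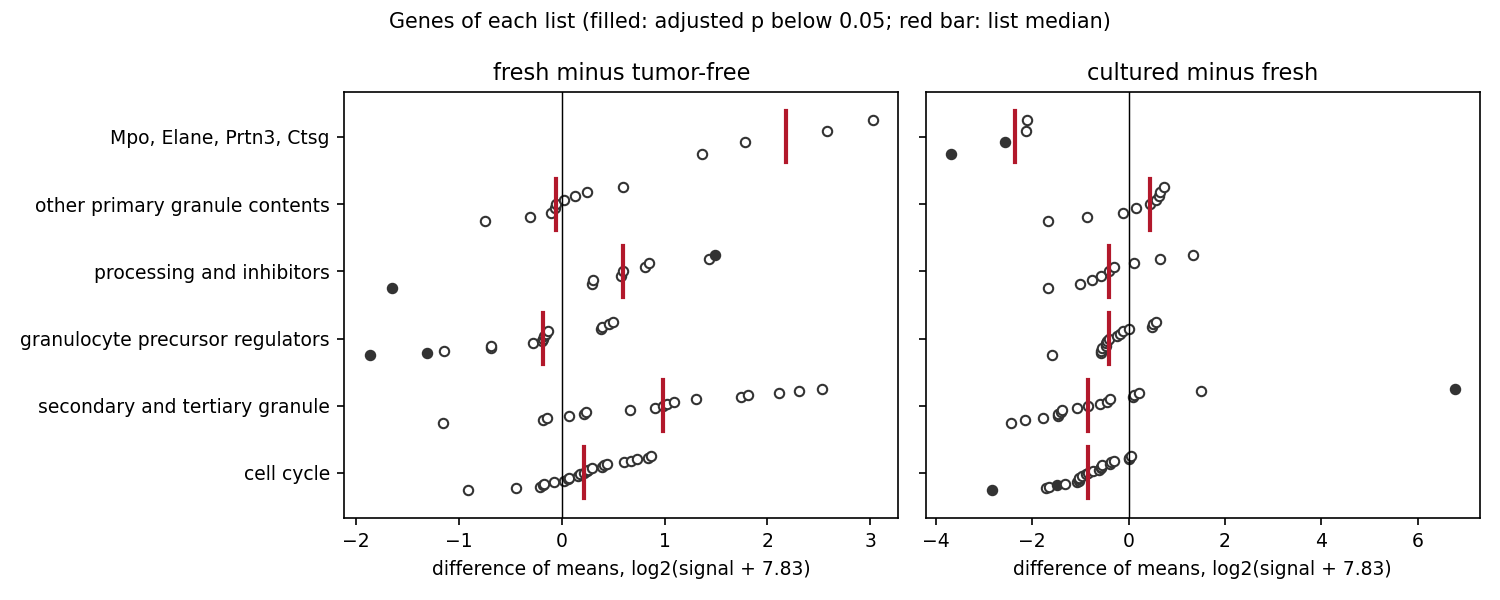
Each point is a gene placed by its difference of group means on the log2(signal + 7.83) scale, for fresh minus tumor-free (left) and cultured minus fresh (right); filled points have an adjusted p below 0.05 and red bars are list medians. The 4 granule genes lie between 1.36 and 3.03 on the left and between -3.68 and -2.11 on the right, while the other primary granule contents centre on -0.06 and 0.44.

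The genomic neighbours and relatives of the 4 genes were mostly dim or not on the array. In the chymase and granzyme cluster around Ctsg 11 of 14 genes were on the array and 5 were tested, none of which passed in any comparison (1 higher unadjusted in fresh and 1 in cultured against tumor-free cells). Mcpt8, the gene beside Ctsg and a protease of basophils, had signals of 1.61, 5.40 and 3.94 on the tumor-free arrays, 13.3, 62.5 and 155 on the fresh arrays and 49.9, 35.6 and 284 on the cultured arrays. All its tumor-free signals were below the offset of 7.83, so the size of its difference of 2.46 in fresh against tumor-free cells (adjusted p = 0.143) is set in part by that offset. In cultured against fresh cells it was at 0.53 (adjusted p = 0.813). Near Elane and Prtn3 only Palm and Arid3a were tested, at 0.07 and -0.10 in fresh against tumor-free cells, with none past the test and 0 at an unadjusted p below 0.05 in the 3 comparisons. Epx, the eosinophil peroxidase gene near Mpo, was too dim to be tested, with signals of 1.06 to 37.3, and Ptgs2, a distant haem peroxidase that makes prostaglandins, was at 0.94 in fresh against tumor-free and at -2.78 in cultured against fresh cells (adjusted p = 0.583 and 0.113).

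Over the 9 arrays, the 8 probe sets most like the mean log2 signal of the 4 genes were taken from 7696 others by Pearson's r, as a description without test. They were Slc4a1 (r = 0.965, rho 0.917), the anion exchanger of red cells, Map2k3 (0.956, 0.950), a kinase of the p38 pathway, Orm1 (0.951, 0.967), an acute phase protein also stored in neutrophil granules, Cnbp (0.949, 0.883), a nucleic acid binding protein, Itpkb (0.947, 0.867), an inositol phosphate kinase, Rrad (0.943, 0.867), a small GTPase, Rps13 (0.930, 0.883), a ribosomal protein, and Rnf19b (0.919, 0.833), a ubiquitin ligase. Without fresh 3 and cultured 2, the arrays farthest from the median, r lay between 0.814 for Rnf19b and 0.943 for Orm1. Each was highest on fresh 3.

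Orm1 had signals of 0.680, 42.9 and 43.7 on the tumor-free arrays, 91.7, 57.8 and 163 on the fresh arrays and 6.23, 5.81 and 14.5 on the cultured arrays, an order close to that of Mpo. Its differences were 1.88 ± 0.65 in fresh against tumor-free and -2.67 ± 0.65 in cultured against fresh cells, and those of Itpkb were 1.26 ± 0.25 and -1.25 ± 0.25. The choice of the 8 fixed these directions, since they were picked for following genes that were high on the fresh arrays, and no test is given for them.

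**Figure D4:**
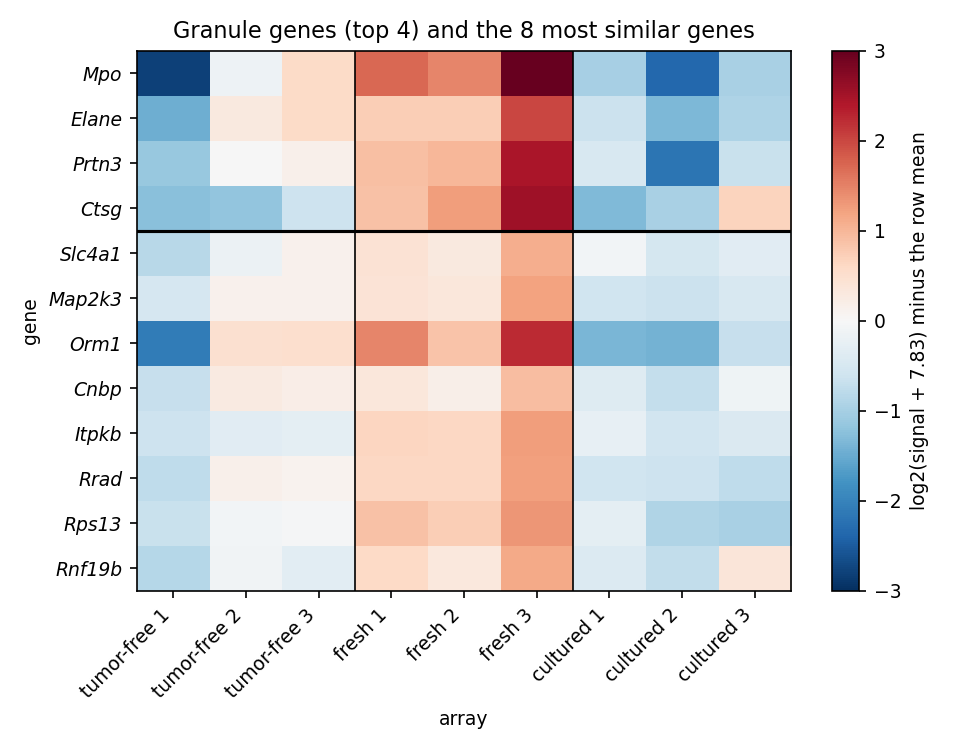
Log2(signal + 7.83) of each gene minus its mean over the 9 arrays (color), for the 4 granule genes (Mpo by 100414_s_at) above the thick line and the 8 most similar genes below it. Fresh 3 is the reddest column in every row, and Mpo reaches the widest range, from 3.31 on tumor-free 1 to 9.64 on fresh 3 before centring.

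Some markers of other cells went the way of the granule genes between groups and others did not, and their part in the result was not tested. Of 15 erythroid genes 10 were on the array and 8 were tested, of which none passed in any comparison (unadjusted, 4 higher in fresh against tumor-free, 4 lower in cultured against fresh and 0 in cultured against tumor-free cells). Their summed signal was 671 to 2461 on the tumor-free arrays, 5019 to 6691 on the fresh arrays and 939.8 to 7492 on the cultured arrays. Most of that sum is Hba-a1, an alpha globin, with 6541 of the 7492 on cultured 3. Slc4a1, the gene most like the granule genes, was at 63.0 there against 182 on fresh 3. Rhag, a red cell membrane protein, and Klf1 were at 47.9 and 46.6 on cultured 3, below every fresh array, as Slc4a1 was. Alas2 and Car2 went the other way, at 271 and 402 on cultured 3, above every fresh array, as Hba-a1 was. Epor and Gata1 on cultured 3 lay within the range of the fresh arrays. Of 9 exocrine pancreas genes 8 rose in fresh against tumor-free and 8 fell in cultured against fresh cells, with at least 7 of 9 in each when any 1 array was left out and sums of 513 to 762, 12669 to 21347 and 437 to 1061 on the tumor-free, fresh and cultured arrays. Among these genes Reg2 and Pnliprp1 passed the filter on low signals only through their fresh values, so their calls are no test. On fresh 3, where the granule genes were highest, the pancreas sum was the lowest of the fresh arrays. Of 10 tested macrophage genes 5 fell in fresh against tumor-free cells, with sums of 4456 to 14022, 2069 to 2260 and 3599 to 4566 in the same order. That count was 0 without tumor-free 2, tumor-free 3 or fresh 2 and 9 without tumor-free 1. Marco was at 3.19 to 15.6 on all arrays and was too dim to be tested. In cultured against tumor-free cells 4 macrophage genes fell, and 1 to 6 did with 1 array left out. Of 7 B cell, 4 monocyte and 5 NK and cytotoxic T cell genes tested none passed in any comparison. Their medians were -0.43, -0.90 and -0.44 in fresh against tumor-free cells and -0.09, -0.04 and 0.66 in cultured against fresh cells.

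Cathepsin G is also a product of mast cells. Of 13 mast cell and basophil genes 10 were on the array and 7 were tested, and none passed in fresh against tumor-free or cultured against fresh cells (2 higher and 1 lower, and 1 lower, unadjusted). In cultured against tumor-free cells 1 fell, Kit, as given above. The summed signal of the mast cell and basophil genes was 796 to 2563 on the tumor-free arrays, 2007 to 3140 on the fresh arrays and 549.5 to 1394 on the cultured arrays. Most of the sum was Hdc, which makes histamine in mast cells and basophils and is also expressed by other myeloid cells, with 2205, 458 and 398 on the tumor-free arrays, 1591, 1708 and 2708 on the fresh arrays and 269, 132 and 739.6 on the cultured arrays. It was highest on fresh 3, as the granule genes were, and lower on every cultured than on every fresh array (-2.67, adjusted p = 0.0674). Cpa3, the mast cell carboxypeptidase, was at 26.3 to 38.6 on the fresh arrays and at 7.86 to 24.1 on the others (0.90 in fresh against tumor-free cells, adjusted p = 0.249). Tpsb2, a mast cell tryptase, ran from 28.9 on fresh 3 to 153 on cultured 2, Tpsab1 from 1.78 to 4.94 and Fcer1a from 1.62 to 15.4. Of 3 tested eosinophil genes none passed (1 lower unadjusted in fresh and 1 in cultured against tumor-free cells), and the eosinophil sum was 49.1 to 85.7 on the fresh arrays against 60.4 to 261 on the tumor-free arrays.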

How the data were processed

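RNA of 9 CD11b+ spleen samples was hybridized to Affymetrix MG-U74Av2 arrays. The deposited values are array intensity, 1 linear MAS5 signal for each probe set, per the submitters' processing notes; its version and settings are unknown here. The signals were used as deposited, already scaled, with no detection calls, so the number of arrays limits the precision. Each signal was increased by 7.83, the 20th percentile of all signals, before log2 was taken, which understates changes of dim genes. Removing 66 controls and the 30% of probe sets dimmest on average left 8695. One limma 3.58.1 (R 4.3.3) model with 3 group means and an intensity trend was fitted to all 9 arrays (6 residual degrees of freedom), two-sided. P-values were adjusted by Benjamini and Hochberg's method over these 8695, and calls needed an adjusted p below 0.05. Groups came from the sample titles.

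Symbols came from the platform annotation, with 1 symbol for 10855 probe sets, several for 396 and none listed for 1237. Where a gene had several probe sets, the brightest on average stood for it. Named genes were the members, the 8 most similar probe sets, and of each list the called genes and up to 3 others with the largest change. The pancreas and macrophage lists were given by counts and sums instead, with Reg2 and Pnliprp1 named for the filter on low signals. Lyz2, Ctsc, Myb, Cebpa, Spi1, Gfi1, Epx, Cpa3, Tpsab1, Tpsb2, Fcer1a, Rhag, Klf1, Car2, Epor, Gata1, Marco and Itgam fall outside this rule and were named after their values were seen. The members, lists and alternatives were chosen with earlier results of these data known. The model was first tested on simulated data. Alternatives covered normalization, offset, filter, arrays in the fit, replicate and spike-in blocks, and leaving arrays out.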

Additional observations from a re-analysis of the deposited data

How the results depend on the processing

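Each result was recomputed under 19 alternatives, 9 of which left out 1 array. For Mpo 100414_s_at, Elane and Prtn3 the direction in fresh against tumor-free and in cultured against fresh cells held in every alternative. Ctsg was removed as dim with an offset at the 5th percentile and with the lowest 50% left out, and Mpo 100415_at with the latter.

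Ctsg, which passed the filter on low signals only through its fresh values, is left out of the counts below. In fresh against tumor-free cells 0 of the other 4 probe sets passed. Mpo 100414_s_at passed in 2 of the 19 alternatives, the spike-in block and the replicate block, and Elane and Prtn3 in 1, the spike-in block. With 1 array left out the lowest adjusted p was 0.0775 for Mpo, 0.215 for Elane and 0.107 for Prtn3. In cultured against fresh cells 2 passed, Mpo and Prtn3. Mpo passed in 10 of the 19 alternatives, Elane in 5 and Prtn3 in 12. All 3 passed with the spike-in block and with tumor-free 1, fresh 3 and cultured 3 left out together. None passed without a filter on low signals or with each group's closest 2 arrays averaged, and 1 did with an offset at the 5th percentile. With 1 array left out the adjusted p ran from 0.00446 to 0.165 for Mpo, from 0.00682 to 0.201 for Elane and from 0.0146 to 0.134 for Prtn3. In cultured against tumor-free cells 0 passed, and 2 without tumor-free 1, fresh 3 and cultured 3, Mpo at -1.89 and Elane at -1.42.

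Over all probe sets the counts of 165, 234 and 107 in the 3 comparisons became 277, 556 and 177 with the spike-in block, 2147, 1374 and 1810 without the 3 arrays, and 23, 21 and 0 (475 unadjusted) with averaged arrays. The third was 14 with only its groups fitted. Leaving out 1 array gave 63 to 623, 74 to 489 and 24 to 529. The cause was not tested.

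In cultured against tumor-free cells some differences turned sign. Mpo 100415_at, at 0.00, was at -0.05 with quantile normalization, -0.04 with the spike-in block, -0.02 with averaged arrays, and -0.13 to 0.13 with 1 array left out. Ctsg, at 0.48, was at -0.25 without the 3 arrays and at -0.13 without cultured 3, in a range of -0.13 to 0.87 over single arrays left out. Mpo, at -0.65, was at 0.04 without tumor-free 3, in a range of -1.65 to 0.04. None of these passed the test.

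The labels number the replicates 1 to 3 in each group. Deviations of same-numbered samples from their group means correlated at 0.136, -0.200 and -0.0190 in the first comparison and at 0.165, 0.0286 and 0.259 in the second. Samples of different number ranged from -0.169 to 0.263 in the first and from -0.282 to 0.227 in the second. Whether same-numbered samples belong together cannot be told from these values. With that number as a replicate block 200, 258 and 144 probe sets passed. Ctsg apart, the members among them were Mpo in the first comparison and Mpo, Elane and Prtn3 in the second.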
